A study of Mus musculus with 75 samples.

Results

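The Hox genes were the 39 rows of the expression table whose names consist of Hox, a cluster letter from a to d and a number, out of 26218 gene rows. Antisense and host transcripts of the clusters were left out. Every one of the 39 matched a RefSeq gene of the same symbol in mouse build GRCm38 (mm10), 11 in cluster a on chromosome 6, 10 in cluster b on chromosome 11, 9 in cluster c on chromosome 15 and 9 in cluster d on chromosome 2. The number in a Hox name is its paralog group, and 8 genes are called anterior here (groups 1 to 3), 15 central (groups 4 to 8) and 16 posterior (groups 9 to 13).

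Hox genes encode homeodomain transcription factors that give cells their position along the body axis, and they are switched on in the order in which they lie in each cluster, anterior genes before posterior ones. Retinoic acid acts through nuclear receptors bound near the anterior ends of the clusters, and Hoxb1 is a classical direct target. Primordial germ cells, the embryonic founders of eggs and sperm, are known for shutting off the Hox programme that their mesodermal neighbours express.

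The study measured messenger RNA from the ends of transcripts in 75 libraries of 37 groups, and its title names bone morphogenetic protein and retinoic acid as the signals that specify female germ cells. Embryonic germ cells (22 libraries, ICR:C57BL/6=1:1) came from Dppa3-EGFP transgenic embryos sorted for GFP at E9.5, E10.5, E11.5, E12.5 and E13.5 and from Ddx4-RFP transgenic embryos sorted for RFP at E14.5 and E15.5, with the sexes apart from E12.5. PGC-like cells (PGCLCs), germ cells made from embryonic stem cells, carried Prdm1-mVenus and Dppa3-ECFP in every line and were sorted by these reporters. They were grown on m220 feeder cells in a medium with forskolin and rolipram, and the female-fate factors were added from day 3 of culture on. In the 129S1:C57BL/6=1:1 line (22 libraries, 2 per group) the groups were day 0, CT at days 3, 5, 7 and 9, and RA and RB at days 5, 7 and 9. What CT, RA and RB stand for is not spelled out in the labels. In a DBA/2:C57BL/6=1:1 background (24 libraries), wild type and Stra8-/- cells were compared as CT at day 3 and RB at days 5, 7 and 9, with 2 wild-type libraries and 4 knockout libraries a day, the latter from 3 clones (SK1 gave 2 of them). A further 7 single libraries were 0R3B at day 9 of culture and 6 of a C57BL/6 line that also carried Gtrosa26tm1Sor.

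Levels are in RPM, the reads of a gene scaled to a common total of 1 M reads assigned to genes. Depth, estimated from the value of 1 read, was 1.08 to 15.6 M reads a library with a median of 3.12 M, so that 3 reads, the least taken as measured, correspond to 0.192 to 2.78 RPM. No Hox value rests on more than 210 reads, and intervals and floors cover counting error only. Because reads come from transcript ends and were not divided by length, levels are compared between samples and not between genes. In RefSeq 20 of the 39 genes overlap another gene, Hoxa3 with Hoxa4, Hoxa5 and Hoxa6 among them, and strand use in counting is not given in the sources used here, so overlapping genes and antisense partners cannot be told apart. In sorted bulk cells a lower level from fewer expressing cells cannot be told apart from less RNA per cell. The labels name no separate cultures or litters, so the p-values measure the spread between these libraries only.

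Of the 39 Hox genes, 26 reached a mean of 5 RPM in at least 1 group of 2 or more libraries. These were 7 of cluster a, all 10 of cluster b, 6 of cluster c and 3 of cluster d. Hoxa6 had no read in any of the 75 libraries. The other 12 had highest group means between 0.563 and 4.97 RPM. The group with the highest mean was E9.5 for 17 genes and Stra8-/- RB at day 9 for 12 genes.

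**Figure D1:**
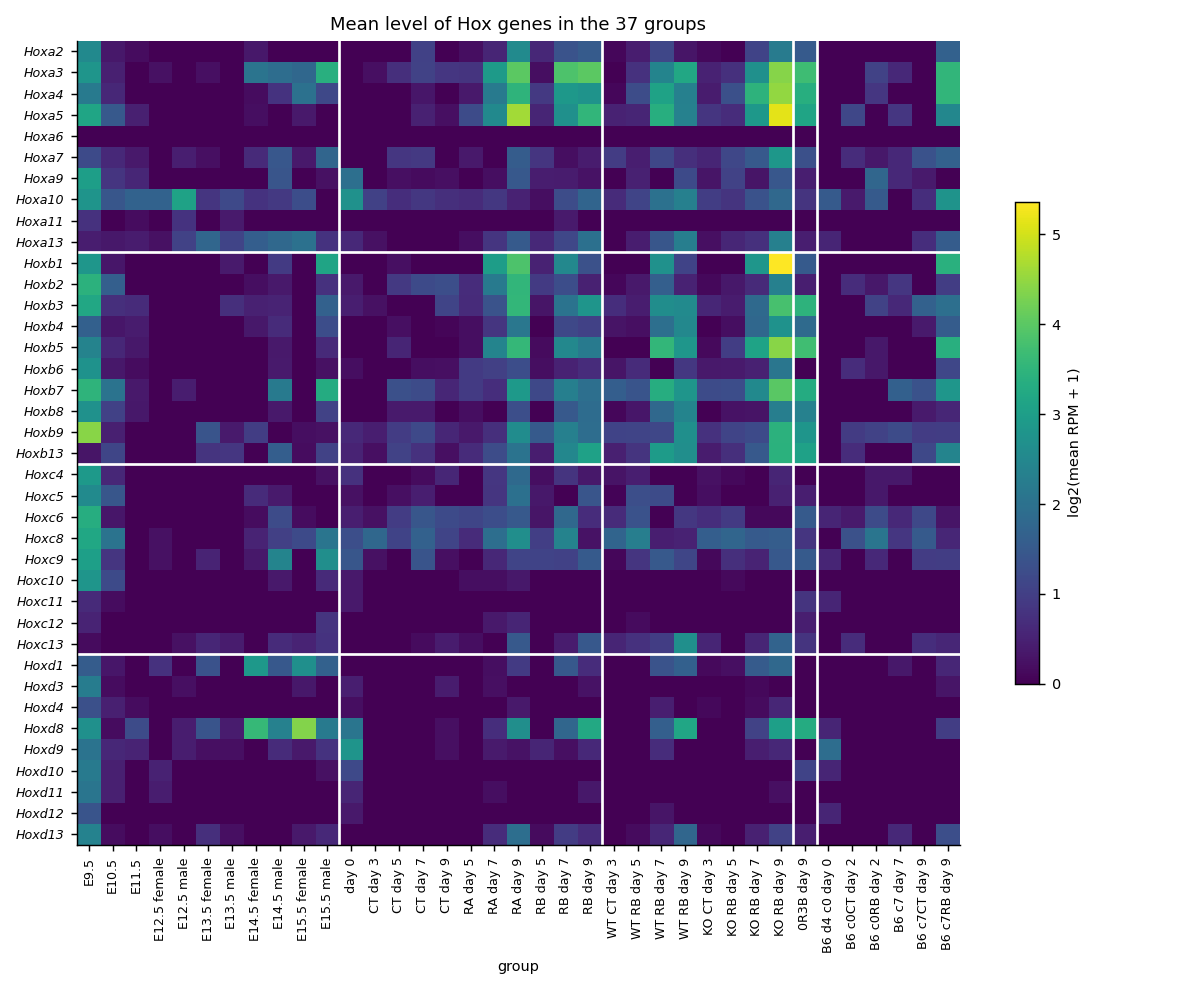
Mean level of Hox genes (rows, by cluster and paralog number) in each of the 37 groups (columns), as log2(mean RPM + 1) by colour, with white lines between clusters and between experiments. The E9.5 column is bright in all 4 clusters, and the RA, RB and Stra8-/- columns are bright mainly in clusters a and b.

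Before any female factor was given, PGCLCs held little Hox RNA. The 39 genes together summed to 21.7 and 34.1 RPM at day 0, and to 3.95 and 6.26 RPM after 3 days of culture. Hoxd8, a central gene, was at 3.23 and 3.26 RPM at day 0 and at 0 in both libraries of day 3, a fall of 2.09 on the log2(RPM + 1) scale (SE 0.41, adjusted p = 0.00171) and at least 3.10-fold lower against the 3-read floor. It was the only one of 10 tested Hox genes that changed, where 2.43% of all tested genes were lower. A gene was tested if 2 or more libraries of its experiment reached 5 RPM, and a change means a Benjamini-Hochberg adjusted p below 0.05 in limma and at least 1 on the log2(RPM + 1) scale. The posterior genes Hoxd9 and Hoxa10 missed that filter. Hoxd9 was at 7.33 and 4.35 RPM at day 0 and at 0 in both day 3 libraries, and Hoxa10 was at 3.81 and 7.25 RPM, then 0.987 and 1.1 RPM. The sum stayed low in CT, at 10.7 and 9.38 RPM on day 9, and by limma 0 of the 10 tested genes changed between CT day 3 and CT day 9, with 1 at an unadjusted p below 0.05, where 2.25% of all tested genes changed.

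How Hox genes respond to the female factors was addressed by RA and RB against CT on the same day, comparisons that share the CT libraries. On day 5, 1 of 10 tested Hox genes was higher in RA, where 0.227% of all tested genes were, and 1 was higher in RB, where 0.556% were. The RA count was 0 without RA replicate 1 or CT replicate 2.

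By day 7, genes of both clusters a and b had risen. Hoxb1 (chr11:96365746-96368254), which gives the fourth hindbrain segment its identity, had 0 in both CT libraries, 7.73 and 6.08 RPM in RA and 5.84 and 3.52 RPM in RB. Hoxa3, which acts in the pharyngeal arches, was at 1.22 and 0.928 RPM in CT, 4.46 and 8.78 RPM in RA and 15.2 and 12.2 RPM in RB. No treated library overlapped CT for Hoxb1 and Hoxa3. Hoxa4 was at 0.49 and 0 RPM in CT, 2.08 and 5.06 RPM in RA and 7 and 5.44 RPM in RB. Hoxa5 was at 0.49 and 0.309 RPM in CT, 3.57 and 6.08 RPM in RA and 5.25 and 5.76 RPM in RB. Hoxb5 was at 0 in both libraries of CT, 0.892 and 7.76 RPM in RA and 5.84 and 3.52 RPM in RB. For Hoxa4, Hoxa5 and Hoxb5 all treated libraries lay above CT. Hoxb3 was at 0 in both libraries of CT, 1.19 and 2.03 RPM in RA and 4.38 and 1.92 RPM in RB. Hoxd8 was at 0 in both libraries of CT, 0.595 and 0.675 RPM in RA and 3.21 and 1.6 RPM in RB. For these 2 genes both RB libraries lay above CT. In RA 6 of 10 tested Hox genes were higher, Hoxa3, Hoxa4, Hoxa5, Hoxb1 and Hoxb5 among them, where 4.68% of all tested genes were higher. In RB 8 were higher, these 5 with Hoxb3 and Hoxd8 among them, where 15.7% of all tested genes were higher. All 10 tested genes passed the filter through treated libraries alone, so a count over them starts from genes that had to differ and supports nothing further. The RA count fell to 3 without CT replicate 2 and to 2 without RA replicate 2.

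On day 9 the Hox sum was 10.7 and 9.38 RPM in CT, 179 and 181 RPM in RA and 112 and 86.1 RPM in RB. In RA, 10 of the 10 tested genes had risen, 4 of cluster a, 5 of cluster b and Hoxd8, where 13.3% of all tested genes were higher. In RB, 9 had risen, all of these but Hoxb2, where 24.6% of all tested genes were higher. Hoxa5, a central gene known from lung and thoracic patterning, stood at 0.321 and 0 RPM in CT and at 22.4 and 25.2 RPM in RA, a difference of 4.43 (SE 0.41, adjusted p = 4.28e-08). Hoxa4 and Hoxb5 had no read in either CT library and reached 9.14 and 11.49 RPM (Hoxa4) and 9.14 and 12.6 RPM (Hoxb5) in RA. Of the 9 genes of cluster c 0 were tested, so the calls say nothing of that cluster. It summed to 3.21 and 3.56 RPM in CT, 16.7 and 16.1 RPM in RA and 7.94 and 4.83 RPM in RB. Within it Hoxc8 had 0 and 7 reads in CT, 19 and 17 reads in RA and 1 and 0 reads in RB. Of the posterior genes Hoxb9 alone was tested. The 16 posterior genes summed to 21.1 and 17.1 RPM in RA, 26.6 and 14.8 RPM in RB and 3.53 and 0.647 RPM in CT. The 8 anterior genes summed to 78.5 and 88.3 RPM in RA, 40.5 and 38.6 RPM in RB and 3.21 and 4.85 RPM in CT.

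Other genes were also measured on day 9. Hoxb3 was at 0.643 and 1.62 RPM in CT, 12.3 and 9.03 RPM in RA and 5.96 and 5.9 RPM in RB. Hoxb9 was at 0.643 and 0.323 RPM in CT, 4.73 and 5.47 RPM in RA and 3.18 and 2.41 RPM in RB. Both genes passed in RA and in RB. Hoxa2, a hindbrain gene that missed the filter, was at 0 in both libraries of CT, 3.78 and 6.02 RPM in RA and 2.78 and 1.07 RPM in RB. Hoxb7 was at 0.964 and 0 RPM in CT, 9.77 and 3.01 RPM in RA and 2.78 and 2.95 RPM in RB. Hoxb13 was at 0 and 0.323 RPM in CT, 4.1 and 2.19 RPM in RA and 11.52 and 3.22 RPM in RB. None of these was tested, and RA and RB lay above CT in Hoxa2, Hoxb7 and Hoxb13. Hoxb4 was at 0.107 and 0 RPM in CT, 5.36 and 1.37 RPM in RA and 1.59 and 0.537 RPM in RB. Hoxb8 was at 0 in both libraries of CT, 1.26 and 1.64 RPM in RA and 2.78 and 2.68 RPM in RB. Hoxa7 was at 0 in both libraries of CT, 2.84 and 1.09 RPM in RA and 0.397 and 0.268 RPM in RB. These central genes missed the filter as well.

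The difference from CT was larger at day 9 than at day 5 for 9 of 10 tested genes in RA, where 5.94% of all tested genes did that, and for 5 in RB (Hoxa3, Hoxa4, Hoxa5, Hoxb5 and Hoxd8), where 20.2% did. The RB number was 3 without RB day 9 replicate 1 or CT day 5 replicate 2. Markers of fibroblasts and feeder cells summed to 645 and 548 RPM in CT, 390 and 560 RPM in RA and 241 and 219 RPM in RB, and the RA range overlapped that of CT. Of 6 such markers tested, 2 were higher in RA than in CT (Col1a2 and Dcn), while 4 were lower in RB than in CT. Neural and epithelial markers summed to 591 and 539 RPM in CT, 440 and 444 RPM in RA and 207 and 161 RPM in RB, with 2 of 6 tested higher (Krt8 and Krt18) and Tubb3 lower in RA than in CT. Blood markers summed to 73.6 and 98.1 RPM in CT, 47.1 and 51.6 RPM in RA and 19.7 and 32.7 RPM in RB, while 5 of the 8, the globins Hbb-y, Hba-x and Hbb-bh1 among them, were at 0 in all these libraries. Whether these RNAs came from other cells or from the germ cells themselves was not tested, nor was their part in the Hox levels.

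**Figure D2:**
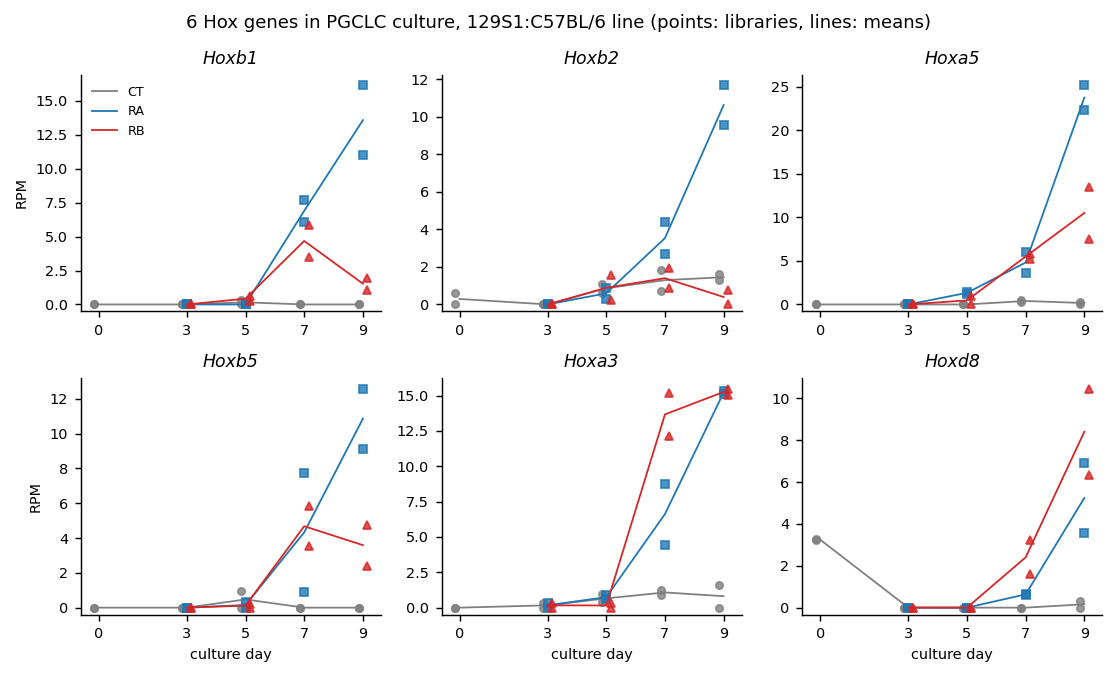
Level (RPM) of 6 Hox genes against culture day in the 129S1:C57BL/6 line, with a point for each library and lines through the means of CT (grey), RA (blue) and RB (red). At day 9 Hoxb1 and Hoxb2 are high in RA and low in RB, while Hoxa3 has nearly the same level in both.

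RB was then set against RA on the same day. On day 5 limma called 0 of the 10 tested Hox genes, with 1 at an unadjusted p below 0.05, and it called 0.0421% of all tested genes. On day 7 only Hoxb9, a posterior gene of thoracic patterning, passed, at 0.297 and 1.01 RPM in RA and 2.92 and 5.12 RPM in RB (difference 1.60, SE 0.50, adjusted p = 0.0492), where 3.58% of all tested genes were higher. That call was lost when any 1 of the 4 libraries was left out. Hoxb9 reached the filter only with 1 of these RB libraries, so the call supports nothing further.

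On day 9, 4 of the 10 tested Hox genes were lower in RB than in RA and 0 were higher, where 11.7% of all tested genes were lower. Hoxb1 was at 11.03 and 16.1 RPM in RA and at 1.99 and 1.07 RPM in RB, a fall of 2.53 (SE 0.40, adjusted p = 2.24e-05). Hoxb2, a neighbour of Hoxb1 that acts in the hindbrain, was at 11.7 and 9.57 RPM in RA and at 0.794 and 0 RPM in RB, a fall of 3.11 (SE 0.46, adjusted p = 1.08e-05). In CT Hoxb2 was at 1.29 and 1.62 RPM, above both RB libraries. Hoxa5 was at 22.4 and 25.2 RPM in RA and at 13.502 and 7.51 RPM in RB (fall of 1.15, SE 0.41, adjusted p = 0.0271). Hoxb5 was at 9.14 and 12.6 RPM in RA and at 4.77 and 2.41 RPM in RB (fall of 1.4, SE 0.53, adjusted p = 0.0370). For each of these 4 genes both RA libraries lay above both RB libraries. Hoxb2 reached 5 RPM only in the RA libraries of day 9, and Hoxb1 and Hoxb5 reached the filter only with RA libraries. All of these were thus tested because RA was high, so counts that include them support nothing further. The same holds for their changes from day 5 or day 7.

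Hoxa3 and Hoxd8 did not share that pattern. Hoxa3 was at 15.1 and 15.3 RPM in RA and at 15.49 and 15.0 RPM in RB, a difference of 0.00 with an SE of 0.44. Hoxd8 was at 6.93 and 3.56 RPM in RA and at 6.35 and 10.46 RPM in RB, a difference of 0.61 with an SE of 0.41. The count of 4 fell to 2, Hoxb1 and Hoxb2, without RA replicate 1, RA replicate 2 or RB replicate 2. Genes listed as markers of other cells were lower in RB than in RA too. Of these, 5 of 6 tested fibroblast and feeder markers and 4 of 6 tested neural and epithelial markers (Pax6, Krt8, Krt18 and Sox2) were called. Whether these RNAs came from other cells or from the germ cells themselves was not tested, nor was their part in the Hox differences.

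Changes over time were also compared between RA and RB. From day 7 to day 9, in comparisons added after these values were seen, 4 of 10 tested genes rose in RA (Hoxa5, Hoxb3, Hoxb9 and Hoxd8), where 1.62% of all tested genes rose. In RB over the same days Hoxd8 rose by 1.47 (SE 0.41, adjusted p = 0.00851), where 9.44% of all tested genes rose. Hoxb1 fell by 1.16 in RB (SE 0.40, adjusted p = 0.0299), from 5.84 and 3.52 RPM to 1.99 and 1.07 RPM, where 5.90% of all tested genes fell. In RB 1 of 10 tested Hox genes thus rose and 1 fell, near the shares over all tested genes. The difference between RB and RA itself changed between day 7 and day 9 for Hoxb1 (−2.03, SE 0.56, adjusted p = 0.0236), Hoxb2 (−2.18, SE 0.65, adjusted p = 0.0350) and Hoxb9 (−2.29, SE 0.71, adjusted p = 0.0402), where 4.27% of all tested genes changed that way. Against day 5 it changed for Hoxb1 (−3.03, SE 0.56, adjusted p = 0.000483) and Hoxb2 (−3.29, SE 0.65, adjusted p = 0.000868), where 8.19% did. Hoxb9 reached the filter only through RA day 9 and RB day 7 libraries, whose high values make its change negative. The calls of Hoxb9 over these days thus support nothing further. These counts rest on 2 libraries a group: the 4 genes that rose in RA became 0 without RA day 7 replicate 1 and 1 without either RA day 9 library. The 2 changes in RB became 0 without RB day 9 replicate 2 and 1 without either RB day 7 library, and the 3 changes of the difference became 0 without RA day 9 replicate 2 or RB day 9 replicate 2. They became 1 without RA day 7 replicate 1, RA day 9 replicate 1 or either RB day 7 library.

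Promoters are shown for Hoxb1 and Hoxd8, which were lower and not lower in RB than in RA, beside the windows of the retinoic acid targets Rarb and Cyp26a1 that hold a retinoic acid receptor motif. RefSeq promoters of build GRCm38.p6, 250 bases before to 50 after the start, were at hand for 22 of the 39 Hox genes. They were searched on both strands for direct repeats of the receptor half-site with 5, 2 or 1 bases between the repeats (DR5, DR2 and DR1). Distances are from the start of the promoter entry, which for Hoxb1, Rarb and Cyp26a1 lies inside the span of the gene in RefSeq. The Hoxb1 sequence ends where that span begins. In the Hoxb1 sequence (chr11:96365508-96365745, plus strand) the capitals mark the letters TGATNNAT, the core pattern that Hox proteins read together with Pbx cofactors, 162 bases before the start. In the Hoxd8 sequence (chr2:74704365-74704614, plus strand) they mark the half-site AGGTCA, 135 bases before the start, which can also be part of a direct repeat. In Rarb (chr14:16575507-16575535, minus strand) and Cyp26a1 (chr19:37697770-37697798, plus strand, motif on the other strand) they mark a DR5.
Hoxb1: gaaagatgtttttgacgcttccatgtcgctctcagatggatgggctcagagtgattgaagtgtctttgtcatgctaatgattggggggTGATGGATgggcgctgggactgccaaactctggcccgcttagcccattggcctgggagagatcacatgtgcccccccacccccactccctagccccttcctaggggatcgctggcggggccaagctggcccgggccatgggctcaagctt
Hoxd8: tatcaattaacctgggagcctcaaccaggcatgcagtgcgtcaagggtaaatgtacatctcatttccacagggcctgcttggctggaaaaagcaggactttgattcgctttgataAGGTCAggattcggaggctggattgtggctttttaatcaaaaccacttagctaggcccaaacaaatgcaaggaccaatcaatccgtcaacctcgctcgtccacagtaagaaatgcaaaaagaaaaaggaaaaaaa
Rarb: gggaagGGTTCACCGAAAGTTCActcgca
Cyp26a1: taaagaTGAACTTTGGGTGAACTaatttg

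Of all 32851 promoters, 0.0974% held a DR5, 0.268% a DR2 and 0.222% a DR1, and of the 24 promoters of the 22 Hox genes 0 held any of the 3. The half-site AGGTCA was in 7 of the 24 Hox promoters (29.2%) and in 16.3% of all promoters. TGATNNAT was in 4 of 24 (16.7%), those of Hoxa2, Hoxb1, Hoxb8 and Hoxd11, and in 8.85% of all. A match describes letters, and no match says only that these letters are not in this window.

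Other genes of the pathway moved in the same libraries. Of 12 retinoic acid targets, 9 were higher and 1 lower in RA than in CT at day 9, and 10 were higher in RB. Cyp26a1, which breaks retinoic acid down, had 488 and 521 RPM in RA and 195 and 228 RPM in RB, against 1.93 and 7.11 RPM in CT. In RB against RA, 5 of the 12 were lower (Cyp26a1, Cyp26b1, Dhrs3, Stra6 and Tgm2) and 0 higher. Of 10 tested BMP targets, 8 were higher in RB than in RA, Id1 to Id4 among them. Of 9 TALE cofactors, the homeodomain partners of Hox proteins, 4 were higher in RA than in CT (Pbx2, Meis1 and Meis2 among them) and 3 in RB (Pbx3 and Meis1 among them). Of 26 tested Polycomb genes, whose products keep Hox clusters silent, 3 were higher and 1 lower in RA than in CT. Of 15 tested genes that flank the clusters, 1 was higher and 1 lower. The lists' medians on the log2(RPM + 1) scale were 4.02 for retinoic acid targets, 0.92 for TALE cofactors, −0.06 for Polycomb genes and 0.32 for flanking genes in RA against CT at day 9, with 0.20 over all tested genes.

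Stra8 is the retinoic acid induced regulator of meiotic entry, and its loss was examined under RB. The targeted gene was checked first: Stra8 was at 1813 and 1717 RPM in wild type at day 9 and at 105, 77.9, 122 and 483 RPM in the knockout libraries. Reads come from transcript ends, and whether they lie in the deleted part is not given in the sources used here. At days 3 and 5 limma called 0 of 16 tested Hox genes between the genotypes, with 0 at an unadjusted p below 0.05, and 0.00819% and 0.0164% of all tested genes. In 14 of the 24 libraries, the second wild-type replicate of each day among them, spike-in transcripts were nearly missing, so day 9 values are also given within libraries with and without them.

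On day 7 the genotypes differed in 2 Hox genes. Hoxb8, a central gene, was at 3.62 and 1.46 RPM in wild type and at 0, 0.851, 0 and 0 RPM in the knockout (fall of 1.53, SE 0.43, adjusted p = 0.0113). Hoxb13, the most posterior gene of its cluster, was at 6.52 and 6.80 RPM in wild type and at 1.85, 3.23, 0.897 and 1.4 RPM in the knockout (fall of 1.49, SE 0.43, adjusted p = 0.0145). They were 2 of 16 tested genes, where 5.57% of all tested genes were lower, and the count was 0 without wild-type replicate 1 and 1 without wild-type replicate 2.

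On day 9, 8 of 16 tested Hox genes were higher in the knockout and 0 lower, where 10.8% of all tested genes were higher. Hoxb1 and Hoxa7 reached the filter only with knockout libraries, so this count starts in part from genes that had to differ. The sum over the 39 genes was 87.3 and 94.6 RPM in wild type and 314, 364, 252 and 259 RPM in the knockout. Hoxb1 was at 0.839 and 1.4 RPM in wild type and at 43.5, 55.6, 32.5 and 29.4 RPM in the knockout (difference 4.25, SE 0.41, adjusted p = 1.19e-09). Hoxa5 was at 5.04 and 3.28 RPM in wild type and at 44.1, 45.1, 28.2 and 20.9 RPM in the knockout, 8.32-fold higher (difference 2.74, SE 0.43, adjusted p = 6.63e-06). All 4 knockout libraries, from each of the 3 clones, lay far above both wild-type libraries for these genes.

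Hoxa4 was at 3.36 and 4.68 RPM in wild type and at 24, 28.8, 20.1 and 13.1 RPM in the knockout. Hoxb5 was at 4.20 and 7.96 RPM in wild type and at 20.4, 24.9, 17.7 and 18.5 RPM in the knockout. Hoxa7, a central gene, was at 0.839 and 0.468 RPM in wild type and at 5.84, 8.51, 8.13 and 2.32 RPM in the knockout. Hoxb7, its paralog, was at 5.88 and 6.09 RPM in wild type and at 18.5, 18.3, 12.0 and 10.8 RPM in the knockout. Hoxb3 was at 4.20 and 5.62 RPM in wild type and at 15.9, 9.16, 10.0 and 17.0 RPM in the knockout. None of these genes overlapped between the genotypes, and their adjusted p ran from 8.98e-05 (Hoxa4) to 0.0343 (Hoxb3).

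The 8 genes that passed were 3 of 4 tested anterior genes and 5 of 9 tested central genes, and 0 of 3 tested posterior genes did. Hoxa3, at 5.88 and 10.8 RPM in wild type and 18.8, 32.7, 16.7 and 11.6 RPM in the knockout, missed the threshold (difference 1.13, SE 0.49, adjusted p = 0.0661). Hoxd8 was at 6.72 and 9.36 RPM in wild type and at 8.44, 7.20, 8.61 and 4.64 RPM in the knockout (difference −0.15, SE 0.42). Hoxb4 was at 4.2 and 5.15 RPM in wild type and 4.87, 8.51, 6.22 and 3.09 RPM in the knockout. Hoxb8 was at 5.88 and 2.81 RPM in wild type and 3.89, 3.93, 2.39 and 5.41 RPM in the knockout. Hoxb13 was at 5.88 and 4.68 RPM in wild type and 6.81, 10.47, 9.09 and 12.4 RPM in the knockout. None of the 3 passed. Hoxb9 was at 7.55 and 3.28 RPM in wild type and 6.81, 13.1, 9.09 and 10.8 RPM in the knockout. Hoxa13 was at 0.839 and 7.02 RPM in wild type and 3.24, 2.62, 5.74 and 4.64 RPM in the knockout. Hoxc8 was at 0.839 and 0 RPM in wild type and 2.27, 1.96, 1.44 and 2.32 RPM in the knockout. These did not pass either. Cluster sums at day 9 were 26.9 and 36.1 RPM in wild type and 125 to 190 RPM in the knockout for cluster a, and 41.1 and 37 RPM against 106 to 154 RPM for cluster b. For cluster c they were 6.72 and 8.90 RPM against 4.78 to 8.50 RPM, and for cluster d 12.6 and 12.6 RPM against 10.0 to 13.1 RPM. Hoxa2 and Hoxb2 missed the filter. Hoxa2 was at 0 and 0.468 RPM in wild type and at 2.27, 6.54, 1.44 and 4.64 RPM in the knockout. Hoxb2 was at 0.839 and 0 RPM in wild type and at 2.92, 3.93, 6.22 and 3.09 RPM in the knockout. For both genes every knockout library lay above both wild-type libraries. Hoxc13, the most posterior gene of cluster c, was not tested and had 4.20 and 6.56 RPM in wild type and 1.55 to 2.92 RPM in the knockout.

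**Figure D3:**
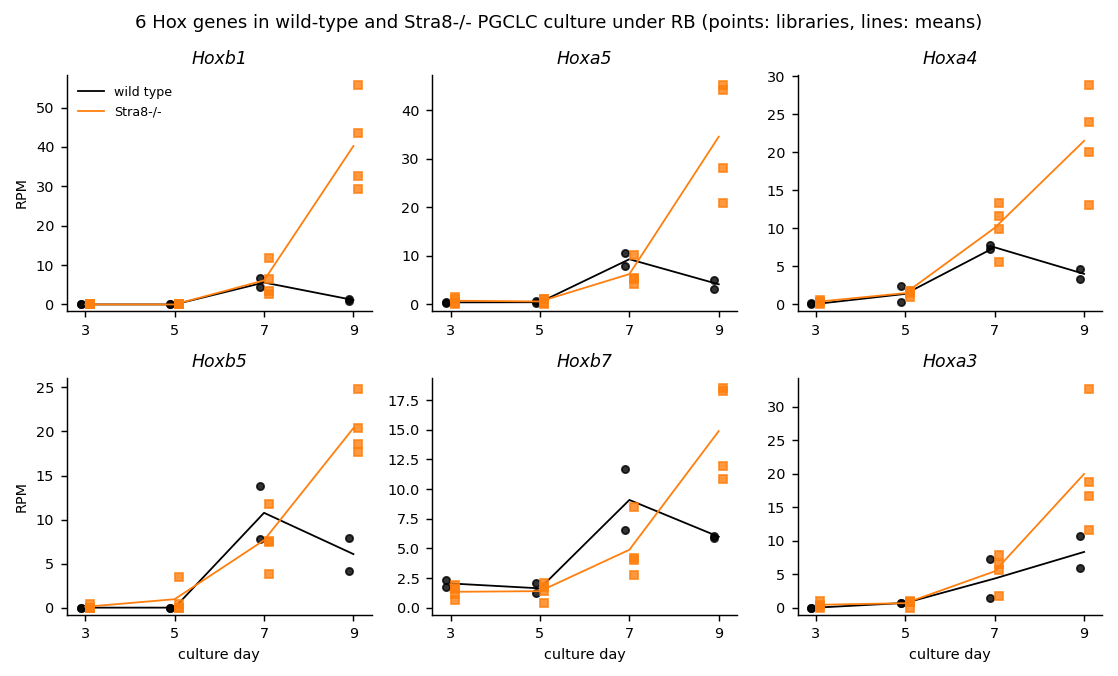
Level (RPM) of 6 Hox genes against culture day in wild-type (black) and Stra8-/- (orange) PGCLCs, CT at day 3 and RB afterwards, with a point for each library and lines through the means. Between day 7 and day 9 Hoxb1 falls in wild type and rises in the knockout.

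In wild type Hoxb1 was transient. From day 7 to day 9, in comparisons added after the values were seen, it fell from 4.34 and 6.80 RPM to 0.839 and 1.4 RPM (fall of 1.62, SE 0.48, adjusted p = 0.00981). Hoxd8 rose from 0.724 and 3.40 RPM to 6.72 and 9.36 RPM (rise of 1.70, SE 0.48, adjusted p = 0.00754). In all, 2 of 16 tested genes fell, Hoxb1 among them, where 6.60% of all tested genes fell, and 1 rose, where 9.19% rose. In the knockout 13 of 16 rose and 0 fell over the same days, where 9.82% of all tested genes rose. Some of the 13, Hoxb1 and Hoxa7 among them, were tested only through knockout libraries, so this count supports nothing further. Hoxb1 rose from 6.48, 11.7, 2.69 and 3.51 RPM to 43.5, 55.6, 32.5 and 29.4 RPM (rise of 2.66, SE 0.34, adjusted p = 3.84e-07).

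The change between the days itself differed between genotypes for 8 of 16 tested genes, where 5.27% of all tested genes differed that way. They included Hoxb1 (4.28, SE 0.58, adjusted p = 2.44e-05) and Hoxa5 (3.30, SE 0.61, adjusted p = 0.000637). The number fell to 4 without either wild-type day 9 library and to 5 without either wild-type day 7 library. Against day 3, 6 genes differed (Hoxa4, Hoxa5, Hoxa7, Hoxb1 and Hoxb7 among them), where 8.66% of all tested genes did. From CT at day 3 to RB at day 9, 13 of 16 tested genes rose and Hoxc8 fell in wild type, where 27.8% of all tested genes rose and 15.9% fell, and 15 rose in the knockout, where 25.6% rose. Culture time and condition change together in this comparison, so they cannot be told apart. Hoxc8 was at 2.30 and 2.35 RPM at day 3 and at 0.839 and 0 RPM at day 9 in wild type (fall of 1.30, SE 0.57, adjusted p = 0.0489). The 3-read floor was 2.52 RPM in wild-type day 9 replicate 1, above the day 3 level, so the fall could not be measured in that library.

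Genotype differences in log2(RPM + 1) at day 9 were also taken within libraries of 1 kind, with no test. Without spike-in, where 3 knockout libraries stood against 1 wild-type library, Hoxb1 differed by 4.01, Hoxa5 by 2.85, Hoxa7 by 2.17 and Hoxa4 by 1.87. Hoxb5 differed by 1.24, Hoxb7 by 1.02 and Hoxb3 by 0.93 there, below their 1.64, 1.15 and 1.21 over all libraries. With spike-in, where 1 library stood against 1, the differences were 4.60 for Hoxb1, 2.90 for Hoxa5, 1.89 for Hoxa7 and 2.52 for Hoxa4. For Hoxb5 they were 2.04, for Hoxb7 1.503 and for Hoxb3 1.70. With the presence of spike-in as a term in the fit, added after seeing the data, 10 of 16 tested genes were higher at day 9. Without wild-type replicate 1, the shallower library, the count of 8 became 5. Of the 16 tested genes, 7 did not reach the filter in the wild-type libraries alone. These were Hoxa7, Hoxa13, Hoxb1, Hoxb4, Hoxb8, Hoxb9 and Hoxc8, so counts over the 16 support nothing further.

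Other lists moved with the genotype at day 9. Retinoic acid targets gave 6 of 12 higher in the knockout (Cyp26a1, Dhrs3, Stra6 and Tgm2 among them) and Stra8 lower. Cyp26a1 had 258 and 245 RPM in wild type and 503, 591, 500 and 522 RPM in the knockout. TALE cofactors gave 3 of 8 tested higher (Meis1 and Meis2 among them) and Pbx3 lower. Meis1 had 5.88 and 6.56 RPM in wild type and 35.7, 34.7, 38.8 and 25.5 RPM in the knockout. At day 7 the signs were other: 4 retinoic acid targets (Cyp26a1, Cyp26b1, Stra8 and Rec8) and Meis1 were lower in the knockout and 0 of either list were higher. BMP targets summed to 1084 and 1044 RPM in wild type and 1987 to 2386 RPM in the knockout, with 3 of 10 tested higher (Id1, Id2 and Smad7) and 0 lower. Polycomb genes gave 2 higher and 1 lower of 26 at day 9. Of the markers of other cell types, Col1a1 of 6 tested fibroblast markers was lower, 0 of 4 tested gonadal somatic markers differed, and Krt8, Krt18 and Sox2 of 6 tested neural and epithelial markers were higher. Fibroblast markers summed to 358 and 251 RPM in wild type and 321 to 450 RPM in the knockout, and neural and epithelial markers to 158 and 122 RPM against 351 to 412 RPM. Blood markers summed to 34.4 and 21.5 RPM in wild type and 64.8 to 108 RPM in the knockout, and Pecam1, the only one tested, was higher, while 5 of the 8, the same globins among them, were at 0 in both genotypes. The sums of neural, epithelial and blood markers did not overlap between the genotypes. Whether these RNAs came from other cells or from the germ cells themselves was not tested, nor was their part in the Hox difference.

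Single libraries are given as values with exact Poisson intervals at 95% that cover counting error only. In the C57BL/6 line at day 9, the c7RB library had a Hox sum of 116 RPM (106 to 127) and the c7CT library 16.1 RPM (12.0 to 21.2). Hoxb1 was at 9.66 RPM (6.90 to 13.1) against 0 (up to 1.14). Spike-in transcripts were at 9.17 RPM in c7RB and 27188 RPM in c7CT, so condition cannot be told apart from this difference. The labels give c0RB as day 2, before the day 3 from which factors were added in the other lines, so its schedule may differ. At day 2, c0RB had a Hox sum of 18.3 RPM (14.2 to 23.2) and c0CT 7.24 RPM (4.64 to 10.8). At day 0 of this line the sum was 8.31 RPM, of which the posterior gene Hoxd9 gave 2.77 RPM. The 0R3B library at day 9 had a Hox sum of 112 RPM (99.4 to 125), with Hoxb1 at 1.86 RPM (0.604 to 4.34), Hoxb2 at 0.372 RPM and Hoxd8 at 8.93 RPM (5.72 to 13.3).

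In the embryo the question was how Hox levels change as germ cells migrate and settle and as the sexes part. At E9.5 the 39 genes summed to 192 and 180 RPM, at E10.5 to 26.8 and 25.9 RPM and at E11.5 to 8.40 and 7.06 RPM. From E9.5 to E11.5, 15 of 16 tested Hox genes fell and 0 rose, where 6.37% of all tested genes fell. Of the 16, 9 reached the filter only with the E9.5 libraries and so had to differ. Spike-in transcripts were at 1114 and 475 RPM in the E9.5 libraries and at 11238 to 50624 RPM in the later embryo libraries. Stage cannot be told apart from this difference between the libraries. Hoxb9 went from 21.6 and 19.1 RPM to 0.520 and 0.262 RPM at E10.5 and to 0 in both E11.5 libraries, at least 23.3-fold lower (fall of 4.41, SE 0.43, adjusted p = 7.88e-08). Hoxc6, a thoracic patterning gene, went from 9.69 and 8.70 RPM to 0 in both E11.5 libraries, at least 10.51-fold lower (fall of 3.35, SE 0.31, adjusted p = 3.63e-08). Hoxb2 went from 13.52 and 6.28 RPM to 0 in both (fall of 3.36, SE 0.41, adjusted p = 1.87e-06). These 3 genes did not overlap between the stages.

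Hoxa3 was at 5.63 and 6.28 RPM at E9.5 and 0 in both libraries at E11.5. Hoxa5 was at 7.89 and 7.98 RPM at E9.5 and 0.787 and 0 RPM at E11.5. Hoxa9 was at 6.31 and 7.73 RPM at E9.5 and 0 and 0.962 RPM at E11.5. All 3 genes of cluster a were lower in both E11.5 libraries. Hoxb1 was at 5.63 and 6.53 RPM at E9.5 and 0 in both libraries at E11.5. Hoxb3 was at 7.89 and 8.7 RPM at E9.5 and 0.525 and 0.642 RPM at E11.5. Hoxb7 was at 9.46 and 10.9 RPM at E9.5 and 0.262 and 0.321 RPM at E11.5. The same held for these genes of cluster b. Hoxb8 was at 5.63 and 5.56 RPM at E9.5 and 0.525 and 0 RPM at E11.5. Hoxc8 was at 8.11 and 8.22 RPM at E9.5 and 0 in both libraries at E11.5. Hoxc9 was at 8.11 and 6.28 RPM at E9.5 and 0 in both libraries at E11.5. Each was higher in both E9.5 libraries. Hoxc10 was at 5.18 and 6.77 RPM at E9.5 and 0 in both libraries at E11.5. Hoxd1 was at 3.15 and 0.725 RPM at E9.5 and 0 in both libraries at E11.5. Hoxd8 was at 5.18 and 5.8 RPM at E9.5 and 2.36 and 0.321 RPM at E11.5. At E11.5 the 9 genes of cluster c had no read in either library, and 23 of the 39 had none.

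All classes took part in the fall: at E9.5 anterior genes summed to 49.6 and 41.1 RPM, central genes to 75.3 and 77.3 RPM and posterior genes to 67.4 and 61.9 RPM. At E11.5 the sums were 0.787 and 0.642 RPM for anterior, 5.25 and 1.60 RPM for central and 2.36 and 4.81 RPM for posterior genes. Hoxb6 and Hoxc4, both central, were not tested. Hoxb6 was at 4.73 and 6.53 RPM at E9.5 and 0.262 and 0 RPM at E11.5. Hoxc4 was at 4.96 and 7.98 RPM at E9.5 and 0 and 0 RPM at E11.5. Of the tested genes, Hoxa10 alone did not pass, at 4.73 and 7.01 RPM at E9.5 and 1.84 and 2.57 RPM at E11.5. The E9.5 libraries also held markers of other cells. Blood markers summed to 3704 and 3568 RPM at E9.5, 298 RPM in both E10.5 libraries and 114 and 128 RPM at E11.5, with 4 of 5 tested lower at E11.5. Mesonephros and mesenchyme markers summed to 157 and 172 RPM at E9.5 and 48.0 and 39.1 RPM at E11.5, with 7 of 9 tested lower (Twist1, Meox1 and Prrx1 among them) and 1 higher. Fibroblast markers gave 5 of 7 lower, neural and epithelial markers gave 3 of 7 lower, and 5 of 10 gonadal somatic markers, Amh, Nr5a1 and Foxl2 among them, were at 0 at E9.5. The part of these cells in the fall of Hox RNA was not tested. Germ cell markers summed to 3081 and 3028 RPM at E9.5 and 4247 and 4399 RPM at E11.5.

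**Figure D4:**
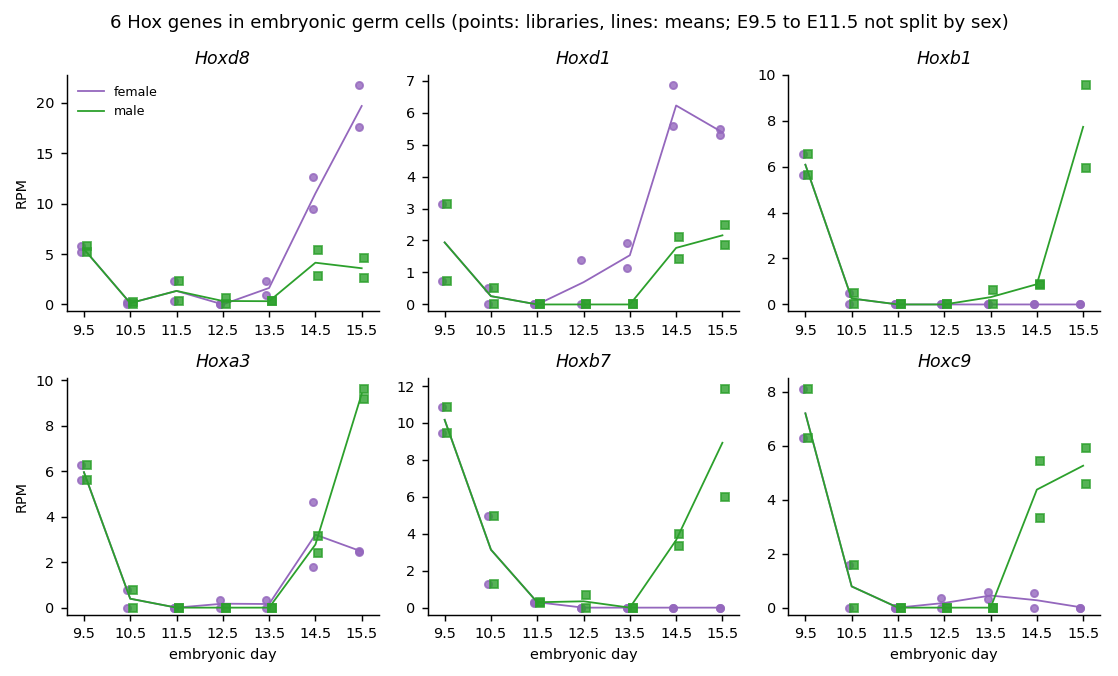
Level (RPM) of 6 Hox genes against embryonic day in sorted germ cells, with a point for each library and lines through the means of females (purple) and males (green), which share the E9.5 to E11.5 values. Hoxd8 and Hoxd1 are higher in females from E14.5, and Hoxb1, Hoxb7, Hoxc9 and Hoxa3 are higher in males at E15.5.

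Between the sexes, limma called 0 of 16 tested Hox genes at E12.5, with 1 at an unadjusted p below 0.05, and 6.53% of all tested genes. At E13.5 Hoxd1 alone was higher in females, at 1.15 and 1.92 RPM against 0 in both male libraries (difference 1.33, SE 0.42, adjusted p = 0.0193), where 10.4% of all tested genes were higher, and the call was lost without either male library. Hoxd1 reached the filter only through female libraries of E14.5 and E15.5, so its calls between the sexes support nothing further. From E14.5 on, the genes called higher in females were of cluster d and those called higher in males were of clusters a, b and c. Of the 9 genes of cluster d only 2 were tested, Hoxd1 and Hoxd8. At E14.5 Hoxd9, which was not tested, had 1 and 3 reads in males and 0 in both female libraries. Not all genes of cluster a were higher in males. At E15.5 Hoxa4, which was not tested, was at 2.43 and 3.62 RPM in females and 0.371 and 2.12 RPM in males. Hoxa13, also not tested, had 8 and 13 reads in females and 2 in each male library. At E14.5, 2 were higher in females, where 22.4% of all tested genes were, and 4 were lower, where 25.9% were. At E15.5, 2 were higher in females, where 23.7% of all tested genes were, and 6 were lower, where 30.0% were. These shares are near or below those over all genes, so that the directions of named genes are the measurement here.

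Hoxd8 was at 9.42 and 12.6 RPM in females and 5.42 and 2.86 RPM in males at E14.5. At E15.5 it was at 17.6 and 21.7 RPM in females and 2.59 and 4.59 RPM in males, 5.48-fold higher in females (difference 2.2, SE 0.43, adjusted p = 9.07e-05). Hoxd1, the anterior gene of cluster d, was at 5.60 and 6.85 RPM in females and 2.11 and 1.43 RPM in males at E14.5, and at 5.48 and 5.29 RPM against 1.85 and 2.47 RPM at E15.5 (difference 1.02, SE 0.42, adjusted p = 0.0349). Neither gene overlapped between the sexes at these stages, but Hoxd1 was tested through these female libraries alone. E11.5 cells were sorted for Dppa3-EGFP and E15.5 cells for Ddx4-RFP from another transgenic line, so stage cannot be told apart from reporter and sort in comparisons between them. Against E11.5, 4 of 16 tested genes were higher in E15.5 females (Hoxa3, Hoxc8, Hoxd1 and Hoxd8), where 28.1% of all tested genes were higher.

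At E15.5 several Hox genes were measured in males and had no read in females. Hoxb1 was at 5.93 and 9.53 RPM in males and at 0 in both female libraries, at least 8.84-fold higher (difference −3.09, SE 0.34, adjusted p = 1.95e-08). Hoxb7 was at 11.9 and 6.00 RPM in males and 0 in both female libraries, at least 10.2-fold higher (difference −3.25, SE 0.40, adjusted p = 1.57e-07). Hoxc9, a posterior gene, was at 5.93 and 4.59 RPM in males and 0 in both female libraries, at least 6.02-fold higher (difference −2.64, SE 0.39, adjusted p = 2.40e-06). Hoxa3 was at 9.63 and 9.18 RPM in males and 2.43 and 2.51 RPM in females (difference −1.58, SE 0.37, adjusted p = 0.000620). Hoxb3, at 1.48 and 2.82 RPM in males, and Hoxb8, at 1.48 and 0.706 RPM, had no read in the females. The second Hoxb8 value rests on 2 reads, below the 3-read floor, so Hoxb8 was not measured in that library.

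At E14.5 the genes higher in males were Hoxb7 (3.31 and 4.0 RPM against 0 in both female libraries), Hoxc9 (3.31 and 5.43 RPM against 0 and 0.548 RPM), Hoxc6 (1.81 and 0.857 RPM against 0 and 0.274 RPM) and Hoxa9 (3.01 and 0.286 RPM against 0 in both). The last of these rests on 1 male library. Against E11.5, with the same change of reporter, 7 of 16 tested genes were higher in E15.5 males and Hoxa10 was lower, where 28.6% of all tested genes were higher and 18.5% lower. Hoxa10, a posterior gene of the reproductive tract, was at 1.84 and 2.57 RPM at E11.5 and at 5.21 and 9.96 RPM in E12.5 males, and at 0 in both E15.5 male libraries. The difference between the sexes changed from E13.5 to E15.5, in a comparison added after the values were seen, for Hoxa3, Hoxb1, Hoxb7 and Hoxc9, 4 of 16 tested genes, where 27.8% of all tested genes changed that way.

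Genes listed as markers of other cells moved with sex at E15.5. Gonadal somatic markers summed to 40.4 and 33.5 RPM in males and 8.21 and 13.1 RPM in females, with 4 of 5 tested lower in females. Cyp11a1 and Cyp17a1, enzymes of steroid-making cells, were at 0 in both female libraries and at 5.19 and 7.41 RPM (Cyp11a1) and 5.19 and 7.06 RPM (Cyp17a1) in males, while Amh was at 0 in both sexes. Mesonephros and mesenchyme markers summed to 85.6 and 81.2 RPM in males and 22.2 and 40.4 RPM in females, with 5 of 9 tested lower in females and 1 higher. Neural and epithelial markers summed to 130 and 111 RPM in males and 33.2 and 28.4 RPM in females, with 4 of 7 tested lower in females, and 6 of 7 tested fibroblast markers were lower in females. Whether these RNAs came from other cells was not tested, nor was their part in the male Hox levels.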

How the data were processed

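Libraries were made by amplifying 1 ng of RNA and reading transcript ends. Per the submitters' processing notes, the tools were TopHat 1.4.1 with Bowtie 1.0.1, Cufflinks 2.2.0 and cutadapt 1.11, and the build mm10. The authors deposited 1 table of expression signal, RPM, scaled to 1 M reads assigned to genes, with 96 spike-in rows that were left out. Values below 0.001 RPM (2777) were set to 0. Hox values were whole multiples of 1 read in 2923 of 2925 cases (tolerance 0.05 reads). Tests used limma 3.58.1 in R 4.3.3 with an intensity trend, on log2(RPM + 1), with 1 mean per group and each experiment fitted apart, over genes with at least 5 RPM in at least 2 libraries: 11873, 12206 and 12567 genes. P-values were Benjamini-Hochberg adjusted over all of them. A call needed an adjusted p below 0.05 and a log2 difference of at least 1. Hox genes with a mean of 5 RPM in a group were to be given with values and called ones with the value in every library compared, the others by range. Of the gene lists at most 4 called members were to be named, and where more are named they were chosen after their values were seen. The script was tested on simulated data. The members, lists and tests were chosen with earlier results of these data known. Comparisons of day 9 with day 7, and of E15.5 with E13.5 between sexes, were added after seeing the data. Promoters came from RefSeq (GRCm38.p6). Python 3.11.15, pandas 2.3.3, scipy 1.17.1 and matplotlib 3.10.9 were used. Some genes that enter the counts and sums are not reported here by name.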

Additional observations from a re-analysis of the deposited data

Results flagged for a closer look

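The difference between RA and CT on the log2(RPM + 1) scale was larger at day 9 than at day 5, by the test of the change itself, by 3.24 for Hoxa3, 3.16 for Hoxa4, 3.21 for Hoxa5, 4.04 for Hoxb1, 2.48 for Hoxb2, 3.84 for Hoxb5, 2.47 for Hoxb9 and 2.39 for Hoxd8. For RB against CT the change from day 5 to day 9 was 3.84 for Hoxa3, 1.82 for Hoxa4, 2.80 for Hoxa5, 2.48 for Hoxb5 and 2.997 for Hoxd8. For RB against RA it was −3.03 for Hoxb1 and −3.29 for Hoxb2. From day 7 to day 9 the RB against RA difference changed by −2.03 for Hoxb1, −2.18 for Hoxb2 and −2.29 for Hoxb9. Hoxb1 and Hoxb2 were tested because RA was high, and Hoxb9 only through RA day 9 and RB day 7 libraries. These changes thus support nothing further. The difference between Stra8-/- and wild type changed from day 3 to day 9 by 1.82 for Hoxa4, 2.52 for Hoxa5, 2.48 for Hoxa7, 4.25 for Hoxb1 and 1.56 for Hoxb7. From day 7 to day 9 it changed by 1.80 for Hoxa4, 3.30 for Hoxa5, 4.28 for Hoxb1, 2.14 for Hoxb3, 2.11 for Hoxb5, 1.97 for Hoxb7 and 2.24 for Hoxb13. The difference between females and males changed from E13.5 to E15.5 by −1.78 for Hoxa3, −2.74 for Hoxb1, −3.25 for Hoxb7 and −3.17 for Hoxc9. In single libraries outside these tests, summed Hox RNA was above the counting floor at 112 RPM in 0R3B at day 9, 116 RPM in c7RB and 18.3 RPM in c0RB of the C57BL/6 line. Of 19 pairs of a Hox gene and a knockout day with a mean of at least 5 RPM, 0 had 1 library far from the other 3 by Dixon's test.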

How the results depend on the processing

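Of 181 results for single Hox genes, 0 reversed over 2646 recomputations, 2312 kept their side of the threshold and 334 lost it, 168 of them with 1 library left out. The counts of called Hox genes moved as follows. With a pseudocount of 0.5 RPM, RB against RA gave 0 at day 7 and 2 at day 9, RA day 9 against day 7 gave 2, RB day 9 against day 7 gave 1, RB against RA from day 7 to day 9 gave 0 and the knockout against wild type from day 7 to day 9 gave 5. With 5 RPM, RA against CT day 7 gave 2, RB against CT 3 at day 7 and 5 at day 9, RB against RA 0 and 2, RB against CT from day 5 to 9 gave 3, day 3 against day 0 gave 0, RA and RB day 9 against day 7 gave 2 and 0, RB against RA from day 7 to 9 gave 6, the knockout 0 at day 7 and 5 at day 9, wild type day 9 against days 3 and 7 gave 3 and 1, the sexes gave 0 at both E13.5 and E14.5 but 4 at E15.5, and E15.5 against E11.5 gave 2 in females and 4 in males. With a filter of 1 RPM, RB against CT gave 13 at day 7 and 18 at day 9, RA against CT 22 at day 9 and 15 from day 5 to 9, RB against RA 3 at day 7, 10 at day 9, 5 from day 5 and 5 from day 7, day 3 against day 0 gave 3, RA and RB day 9 against day 7 gave 9 and 5, wild type 6, the sexes 2 at E13.5 and 7 from E13.5 to E15.5, and E11.5 against E9.5 gave 29. With no filter, RB against CT gave 13 at day 7 and 17 at day 9, RA against CT 21 at day 9 and 14 from day 5 to 9, RB against RA 8 at day 9 and 6 from day 5, day 3 against day 0 gave 2, RA and RB day 9 against day 7 gave 8 and 5, wild type 5, the sexes 2 at E13.5 and 7 from E13.5 to E15.5, and E11.5 against E9.5 gave 29. Median centring gave 0 for RB against RA day 7. Quantile normalization gave 3 for RA against CT day 7, 0 for RB against RA day 7, 1 from day 7 to 9, 1 for the knockout at day 7 and 0 for the sexes at E13.5. With 1 library left out, counts ranged from 0 to 1 for RA against CT day 5, 2 to 6 at day 7, 0 to 0 and 2 to 5 for RB against RA days 7 and 9, 3 to 5 for RB against CT from day 5 to 9, 0 to 3 and 0 to 2 for RA and RB day 9 against day 7, 0 to 2 for RB against RA from day 7 to 9, 0 to 2, 5 to 8 and 4 to 9 for the knockout at days 7 and 9 and between them, and 0 to 1 for the sexes at E13.5. The cause of these shifts was not tested beyond the change in genes or libraries used.

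Samples with the same replicate number did not deviate together throughout (correlations of −0.07 to 0.24 in the 129S1:C57BL/6 line). With the replicate block the knockout against wild type from day 7 to day 9 gave 5 and the sexes at E12.5 gave 1, and no other count moved by over 1.5 times. With 2 libraries in most groups and 1.08 to 15.6 M reads, differences in genes under the 3-read floor were not detectable.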
